A study of Homo sapiens with 4 samples.

Results

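The proteasome subunits were compared between CD133+ and CD133- cells of SW620, a human colorectal cancer line established from a lymph node metastasis. The members were the genes with symbols PSMA, PSMB, PSMC or PSMD and a number, without the immunoproteasome subunits PSMB8, PSMB9 and PSMB10, plus PSME1 to PSME4, each read by its brightest probe set that names only this gene. The rule found 34 of the 19777 genes on the array, 14 of the core particle, 17 of the regulatory particle and 3 activators. Of these, 33 passed the filter on low signal. PSMA8, an alpha subunit known from the testis, did not, with log2 signals of 2.94 and 3.05 in the CD133+ clone against 3.04 and 3.11 in the CD133- clone. Probe sets for PSMA6 and PSME2 also name another gene and were not used here. Further subunits, among them the ATPase PSMC5 and the non-ATPase subunits PSMD7 and PSMD13, had no usable probe set and were not read.

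Both groups came from the same parental line, with no drug treatment or genetic change named. Cells were sorted with magnetic beads for CD133, plated as single cells to grow clones, and sorted for CD133 again before RNA was taken. Each group has 2 arrays, and its titles carry 1 clone code, so CD133 status and clone cannot be told apart. Whether the arrays of a group came from separate cultures is not stated, so the p-values rest on a spread between arrays that may be purely technical.

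The proteasome degrades proteins that carry ubiquitin chains. Its barrel-shaped core particle is built of rings of alpha subunits (PSMA genes), which control entry, and rings of beta subunits (PSMB genes), some of which cut proteins. The regulatory particle caps the core: its ATPases (PSMC genes) unfold substrates and its non-ATPase subunits (PSMD genes) bind and remove ubiquitin. Transcription factors of the NFE2L family, which bind antioxidant response elements, and NF-Y, which binds CCAAT boxes, are known regulators of proteasome genes, and proteasome inhibitors are cancer drugs.

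The antioxidant response element core is shown first, because the NFE2L factors bind it. Of the 29 members with a RefSeq promoter sequence (GRCh38.p14, 250 bases before to 50 bases after a start of the gene), 10 hold it. Some genes have more than 1 start, with 35116 windows for 27305 genes. A gene was counted if any of its windows held the motif, so the shares given here depend on the number of starts. The motif searched was TGACNNNGC on both strands. The stretches below, on the gene's strand and 5′ to 3′, hold the match in capitals with 15 bases on each side, for members whose match lies before the start and reads along the gene.
PSMA4, chr15:78540645-78540683, plus strand: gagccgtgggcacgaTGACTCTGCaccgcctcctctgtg
PSMB3, chr17:38752622-38752660, plus strand: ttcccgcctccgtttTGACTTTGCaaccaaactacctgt
PSMD3, chr17:39980755-39980793, plus strand: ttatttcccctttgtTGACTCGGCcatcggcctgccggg
PSMD5, chr9:120843033-120843071, minus strand: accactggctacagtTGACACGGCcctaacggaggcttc
PSMD9, chr12:121888673-121888711, plus strand: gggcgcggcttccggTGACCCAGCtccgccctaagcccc
PSMD12, chr17:67366719-67366757, minus strand: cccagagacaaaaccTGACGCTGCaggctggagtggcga
PSME1, chr14:24136093-24136131, plus strand: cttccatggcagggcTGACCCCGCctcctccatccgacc
The share was 34.5% of these members, against 16.1% of the 27305 genes with a promoter in the same table. It was 2 of 10 core genes, 6 of 16 regulatory particle genes and 2 of 3 activators.

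CCAAT on either strand was held by 15 of the 29 members, 51.7%, against 39.7% of all genes. GGGCGG, the GC box, was held by 18 of 29, 62.1%, against 48.3%. In the members' windows the antioxidant response element overlapped neither of the others, and CCAAT and GGGCGG matches overlapped once. The CCAAT stretches of PSMD14 and PSMA2 are shown because these genes lie in chromosome regions described further on. In PSMD14 the capitals hold CCAAT on both strands, sharing bases.
PSMD14, chr2:161308362-161308399, plus strand: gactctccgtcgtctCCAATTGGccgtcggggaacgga
PSMA2, chr7:42932239-42932273, minus strand: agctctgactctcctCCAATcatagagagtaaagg
These matches describe letters in the window. The median log2 difference between the groups was 0.0033 over the 10 tested members with the antioxidant response element, which ran from -0.32 to 0.29, and 0.042 over the 18 without it.

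The correlation over genes was r = 0.992 for replicates of either group and 0.977 to 0.988 between groups. The ACTB control probes gave a 3′ minus 5′ signal, which grows as RNA shortens, of 1.92 (log2) on CD133+ replicate 2 and 0.71 to 1.18 on the other arrays. The same measure from the GAPDH control probes did not set that array apart: it was 0.097 and 0.090 on CD133+ replicates 1 and 2, against 0.017 and 0.026 on the CD133- arrays. The upper quartile of the deposited signals was 6.91 on CD133- replicate 1 and 6.61 to 6.71 elsewhere. PROM1, which encodes CD133, had log2 signals of 8.46 and 8.73 in the CD133+ clone against 3.31 and 3.35 in the CD133- clone, which checks the labels. Of 12 colon epithelium markers 11 lay above the level limit, led by KRT18, and KRT20 lay below it. Leukocyte, fibroblast and endothelial markers were dimmer, with mean log2 signals per array of at most 5.31, against 8.87 to 8.93 for epithelium, and no tested marker of any of these lists passed. The brightest were COL1A1 at 6.98, LYZ at 6.43 and PECAM1 at 5.70. Their part in the results was not tested.

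Proteasome subunit mRNAs differed little between the clones. PSMD14, the deubiquitinase of the regulatory particle, was lower in CD133+ cells, and no other of the 33 tested subunits passed the test (limma, Benjamini-Hochberg adjusted p under 0.05 over 15821 genes). That is 1 lower and 0 higher, where 2.34% of all tested genes were called lower and 1.31% higher. At an unadjusted p under 0.05 there were 7 subunits, 4 higher and 3 lower, against 20.6% of all genes in either direction, 10.8% higher and 9.83% lower. The arrays of the groups did not overlap in 16 of 33 subunits, 10 higher and 6 lower in CD133+ cells, against 51.6% of all genes, 30.4% higher and 21.2% lower. By the brightest probe sets none of the subunits differed by 1.5-fold or more, while 8.63% of all genes did. As the arrays read RNA from many cells at once, fewer cells with an mRNA and less of it per cell cannot be told apart.

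The median log2 difference, CD133+ minus CD133-, was 0.0035 over 13 core genes and 0.00805 over 17 regulatory particle genes. Over all genes tested it was 0.058. The zero point depends on the scaling of the arrays. With the arrays centred on their medians in place of quantile normalization, the all-gene median moved to -0.051, the core median to -0.11 and the regulatory particle median to -0.082. Relative to the all-gene median, the core lay at -0.055 after quantile normalization and at -0.056 with the values as deposited. For the regulatory particle these offsets were -0.050 and -0.031. Centred arrays give the same offsets as the deposited values by construction, since centring shifts all genes alike. Probe sets averaged per gene gave offsets of 0.050 for the core and -0.026 for the regulatory particle. Leaving out 1 array gave -0.096 to -0.014 for the core and -0.057 to 0.0018 for the regulatory particle. With centred arrays 25 of the 33 subunits kept their sign and 8 turned (PSMA1, PSMB1, PSMB3, PSMB4, PSMC4, PSMD6, PSMD8 and PSME3). With the values as deposited 28 kept it and 5 turned (PSMB1, PSMB3, PSMC4, PSMD6 and PSME3). The differences that turned were at most 0.081 in size.

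Subunits were measured more tightly than most genes. Their median standard error was 0.090, against 0.18 over all genes, and their median log2 signal was 10.97, against 6.78. In 30 of 33 subunits the 95% interval of the difference lay wholly inside a 1.5-fold change either way, as it did for 46.2% of all genes. The exceptions were PSMA4, PSMD5 and PSMD14. For the brightest probe sets of the other subunits a change of 1.5-fold or more thus lay outside the interval that these arrays give. Dimmer probe sets of PSMB4 and PSMD4 differed by more than that, at 0.71 with overlap and 0.70 without overlap.

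**Figure D1:**
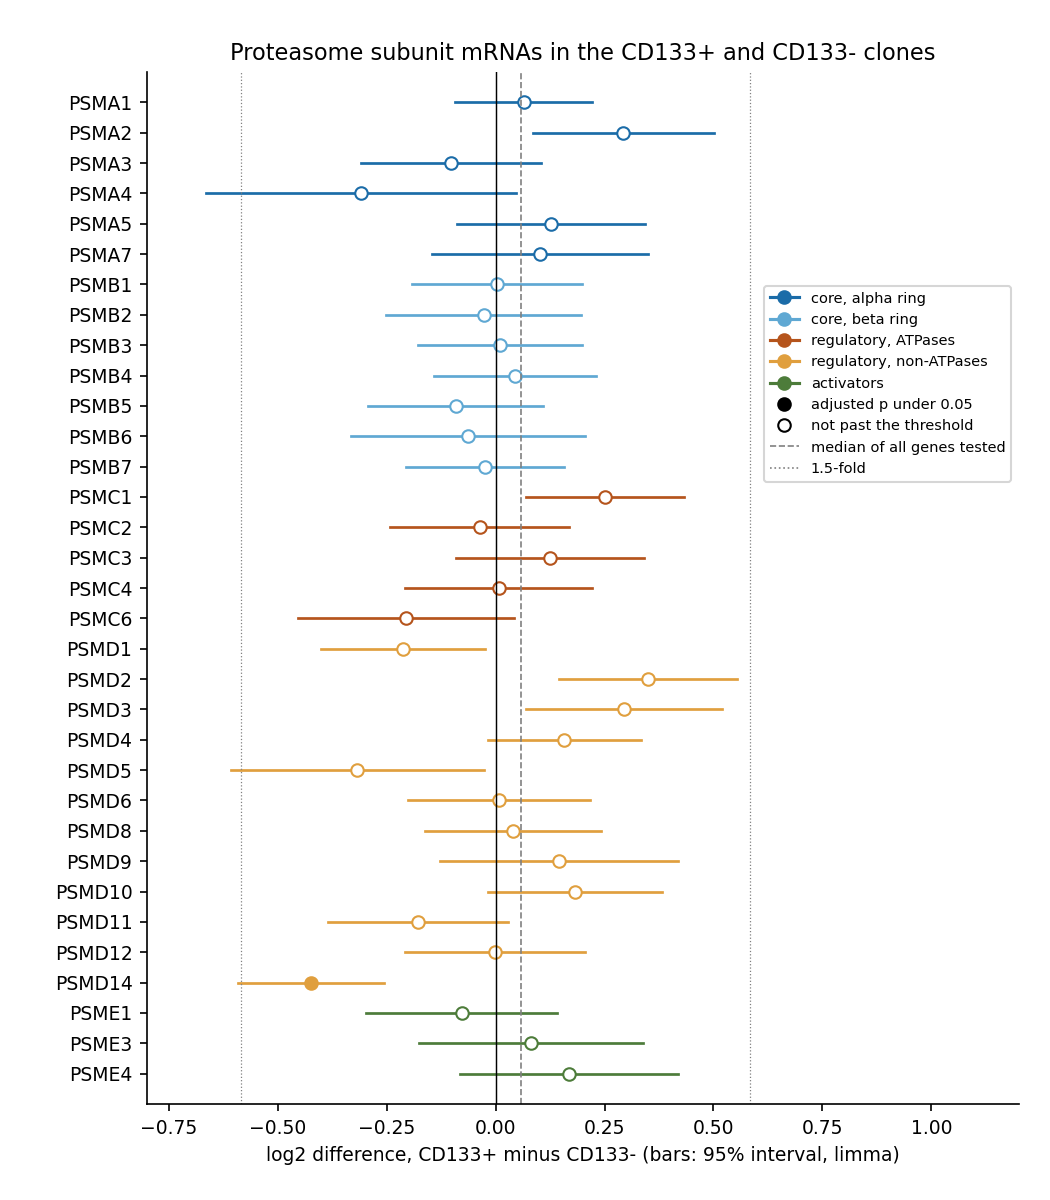
Log2 difference, CD133+ minus CD133-, of the 33 tested subunits by role, with 95% intervals from limma; the filled point is the subunit past an adjusted p of 0.05, dotted lines mark 1.5-fold and the dashed line the all-gene median of 0.058. By these brightest probe sets the beta ring genes lie between -0.091 and 0.045, while the non-ATPase genes run from -0.42 (PSMD14) to 0.35 (PSMD2).

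By their brightest probe sets the beta ring genes had the narrowest range of the roles. These 7 genes ran from -0.091 to 0.045, with an interquartile range of 0.052, against 0.38 over all genes. Their median standard error was 0.085, against 0.18 over all genes, so these ranges were not measured with like precision. None of the 7 genes passed the test, at an unadjusted p under 0.05 there were 0, and all 7 intervals lay inside 1.5-fold. PSMB5, the chymotrypsin-like subunit that proteasome inhibitors bind, had log2 signals of 10.47 and 10.60 in the CD133+ clone against 10.64 and 10.62 in the CD133- clone. The arrays did not overlap, but the gap was small: the difference was -0.091 (SE 0.088, 95% interval -0.29 to 0.11, limma adjusted p = 0.591).

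The other catalytic subunits were PSMB6, the caspase-like subunit, at -0.062 (95% interval -0.33 to 0.21), and PSMB7, the trypsin-like subunit, at -0.024 (-0.21 to 0.16). The structural subunit PSMB4 had the largest positive difference of the ring. It had 11.63 and 11.71 in the CD133+ clone against 11.68 and 11.56 in the CD133- clone. These overlapped, at 0.045 (SE 0.081, limma adjusted p = 0.789), which turned to -0.040 with centred arrays. PSMB1, PSMB2 and PSMB3, further structural beta subunits, lay at 0.0035, -0.027 and 0.010.

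Other probe sets of the beta ring gave larger values. A second probe set of PSMB4, of nearly equal signal, gave 0.12 without overlap, and a dimmer one 0.71 with overlap. A second bright probe set of PSMB1 gave 0.14 without overlap, and one of PSMB2 0.18 with overlap. With probe sets averaged per gene the ring ran from -0.091 to 0.29, the latter PSMB4, and was no longer the narrowest, since the 3 activators then ran from -0.19 to -0.078.

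Within the CD133+ clone, replicate 2 was above replicate 1 in all 7 beta ring genes, by a median of 0.13, which is more than any difference between the groups in this ring. In the CD133- clone replicate 2 was above replicate 1 in 3 of 7, with a median of -0.014. CD133+ replicate 2 is the array with the high ACTB 3′ minus 5′ signal, while its GAPDH 3′ minus 5′ signal, at 0.090, lay below the 0.097 of replicate 1. The part of RNA quality in this shift was not tested. Over all genes the same replicate difference had a median of 0.044.

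The alpha ring was more spread, with 6 tested genes between -0.31 and 0.29 and none past limma's test, or 1 at an unadjusted p under 0.05. That gene was PSMA2, with log2 signals of 11.88 and 12.04 in the CD133+ clone against 11.75 and 11.59 in the CD133- clone. The CD133+ arrays lay above the CD133- arrays, with a difference of 0.29 (SE 0.090, 95% interval 0.085 to 0.50, 1.22-fold, limma adjusted p = 0.125). Its dimmer probe set gave 0.14, also without overlap. PSMA2 passed without CD133+ replicate 1, at 0.37 (limma adjusted p = 0.0400).

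PSMA4 was the alpha gene with the largest negative difference, and its CD133+ arrays disagreed. Its signals were 10.57 and 11.08 in the CD133+ clone against 11.05 and 11.22 in the CD133- clone, so that the groups overlapped. The difference was -0.31 (SE 0.15, 95% interval -0.66 to 0.047, limma adjusted p = 0.302). Without CD133+ replicate 1, the low array, it was -0.053, and without CD133+ replicate 2 it was -0.56, so 1 array sets this value.

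PSMA1, PSMA3, PSMA5 and PSMA7, the other alpha subunits tested, lay at 0.064, -0.10, 0.13 and 0.10. For PSMA1 all 3 probe sets, read on the same 4 arrays, had differences between 0.064 and 0.14 without overlap. The arrays did not overlap in 51.6% of all genes either. The brightest probe set's value lay close to the all-gene median of 0.058, and its sign turned with centred arrays. The brightest probe sets of PSMA1 and PSMA7 carry the suffix that marks probes which may also detect other transcripts, and proteasome genes have many processed pseudogenes.

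**Figure D2:**
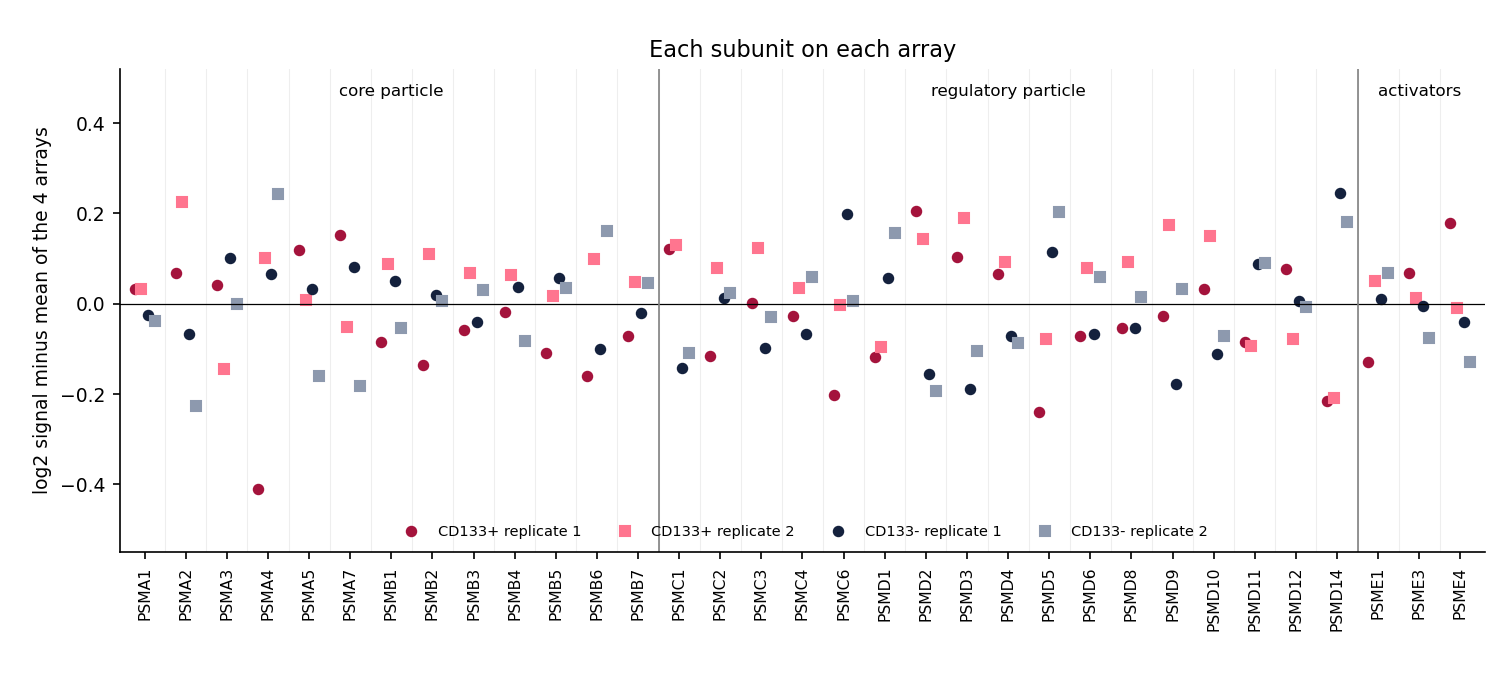
Log2 signal of each tested subunit on each of the 4 arrays, minus the subunit's mean over the arrays; circles are replicate 1 and squares replicate 2, red for CD133+ and blue for CD133-. In the beta ring the CD133+ replicates lie farther from each other than the groups do, PSMA4 has 1 low CD133+ array, and in PSMD14 the CD133+ arrays lie together below the CD133- arrays.

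The ATPases of the regulatory particle had differences between -0.21 and 0.25 over 5 tested genes, none past limma's test and 1 at an unadjusted p under 0.05. That was PSMC1, which had log2 signals of 11.04 and 11.05 in the CD133+ clone against 10.77 and 10.81 in the CD133- clone. The replicates were close and the groups lay apart, with a difference of 0.25 (SE 0.079, 95% interval 0.070 to 0.43, limma adjusted p = 0.130). PSMC6, another ATPase of the ring, had 10.27 and 10.47 in the CD133+ clone against 10.67 and 10.48 in the CD133- clone. The groups lay apart only by a small gap, and the difference was -0.21 (SE 0.11, limma adjusted p = 0.319). PSMC2, PSMC3 and PSMC4, further subunits of this ring, were at -0.037, 0.13 and 0.0070. Genes of 1 ring, whose products are built in together, thus had values on both sides of the all-gene median.

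Among the non-ATPase genes the values ran from -0.42 to 0.35 over 12 tested genes, with an interquartile range of 0.35. That of the core genes was 0.13. PSMD14 removes ubiquitin chains from substrates as they enter the particle. Its log2 signals were 11.65 on both CD133+ arrays, against 12.11 and 12.04 in the CD133- clone. Replicates differed by less than 0.1 and the groups lay apart. The CD133+ mean was 11.65 ± 0.0057 (SD, n = 2) and the CD133- mean 12.07 ± 0.045 (SD, n = 2), and PSMD14 fell by 0.42 on the log2 scale (SE 0.073, 95% interval -0.59 to -0.26, 1.34-fold lower, limma adjusted p = 0.0226). It has 1 probe set. The call was lost without CD133- replicate 1 (-0.39, limma adjusted p = 0.202), without CD133- replicate 2 (-0.46, 0.0655), without a variance trend (0.169), with all probe sets tested one by one (0.0547) and against a 1.5-fold change.

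PSMD2, the large scaffold subunit that holds shuttle factors, had the largest positive difference of all subunits. It had 10.30 and 10.24 in the CD133+ clone against 9.94 and 9.90 in the CD133- clone. Both CD133+ arrays lay above, and the difference was 0.35 (SE 0.089, 95% interval 0.14 to 0.55, limma adjusted p = 0.0748). PSMD1, the other large scaffold subunit, was at -0.21 (SE 0.082, limma adjusted p = 0.194), with arrays apart in the opposite direction.

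PSMD3, a subunit of the lid that covers the ATPase ring, was at 0.29 (SE 0.098, limma adjusted p = 0.145). Its CD133+ arrays, at 9.78 and 9.86, lay above the CD133- arrays, at 9.48 and 9.57. PSMD11, also of the lid, was at -0.18 from its brightest probe set and 0.18 from a dimmer one. PSMD12, PSMD6 and PSMD8, further lid subunits, were at -0.00038, 0.00805 and 0.040, but a second probe set of PSMD12 gave 0.29 without overlap. PSMD4, the ubiquitin receptor, was at 0.16 (SE 0.077), and 3 of its other probe sets gave 0.14, 0.13 and 0.70.

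PSMD5, PSMD9 and PSMD10 are known as assembly chaperones of the regulatory particle rather than parts of the finished particle. By their brightest probe sets they did not share a direction: PSMD5 was at -0.32 (SE 0.13, limma adjusted p = 0.205), PSMD9 at 0.15 (SE 0.12) and PSMD10, also called gankyrin, at 0.18 (SE 0.087). The PSMD5 arrays read 8.19 and 8.35 in CD133+ and 8.55 and 8.63 in CD133- cells, so the groups lay apart. The arrays of PSMD9 overlapped, and those of PSMD10 did not. A dimmer probe set of PSMD9 gave -0.39 without overlap, and a second bright one of PSMD10 gave 0.047 with overlap.

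**Figure D3:**
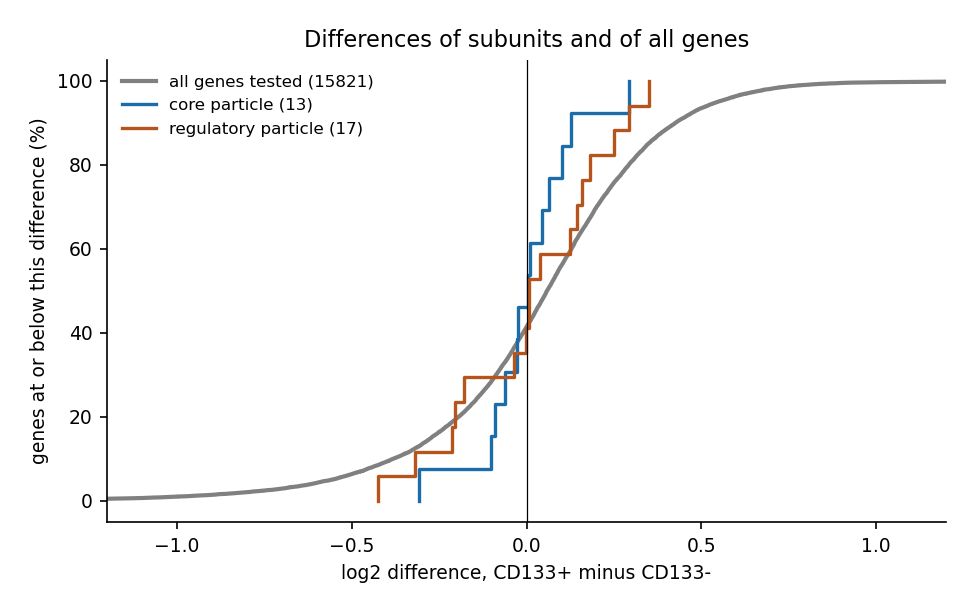
Cumulative share of genes (%) at or below each log2 difference, for the 13 core genes, the 17 regulatory particle genes and the 15821 genes tested. The core curve is steep around 0, with an interquartile range of 0.13, the regulatory particle curve has one of 0.34 and the all-gene curve one of 0.38.

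The activators, which open the core's gate in place of the regulatory particle, had 3 tested genes and none past limma's test, also at an unadjusted p under 0.05. PSME4, the activator PA200 of the nucleus, had log2 signals of 9.67 and 9.48 in the CD133+ clone against 9.45 and 9.36 in the CD133- clone. The CD133+ arrays lay above by a small gap, 0.17 on average (SE 0.11, 95% interval -0.081 to 0.42, limma adjusted p = 0.418). The mean over its probe sets was -0.086.
PSME1, a subunit of the interferon-induced activator, had 10.31 and 10.49 in the CD133+ clone against 10.45 and 10.50 in the CD133- clone. These overlapped, with a difference of -0.078 (SE 0.096, limma adjusted p = 0.680). PSME3, the nuclear activator PA28 gamma, was at 0.081 from its brightest probe set (SE 0.11), while its other 3 probe sets gave -0.26, -0.27 and -0.31. Its sign thus depends on the probe set.

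Over all members, 28 further probe sets lay at or above the level limit. Of these, 16 had the sign of the gene's brightest probe set and 12 the opposite sign, and 17 lay within 0.3 of it on the log2 scale. With the mean of all probe sets of a gene, PSMD14 remained the only subunit called. As it has 1 probe set, averaging could not change its difference and says nothing about agreement between probe sets for this gene.

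PSMD14 and PSMA2 lie among neighbours that were shifted the same way. The 40 nearest tested genes in chromosome order, 20 on each side of PSMD14 on chromosome 2, had a median difference of -0.50, and 14 of them were called, all lower, where 2.34% of all tested genes were called lower. PSMD14 itself lay 0.079 above that median. Around PSMA2 on chromosome 7 all 40 neighbours had positive differences, with a median of 0.48 and 11 called, all higher, where 1.31% of all tested genes were called higher, and PSMA2 lay 0.18 below that median (-0.18). No other tested subunit had neighbours with a median beyond 0.25 in size. PSMD1, also on chromosome 2, had neighbours at -0.16, PSMC4 at 0.24, and the neighbours of PSMD2, PSMA4 and PSMD5 lay at 0.14, -0.038 and -0.017. Across the 33 subunits the subunit's difference and its neighbours' median correlated with Pearson r = 0.57, and with r = 0.27 over the 28 on chromosomes other than 2 and 7. Neighbourhoods of nearby subunits share genes, so these are descriptions.

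**Figure D4:**
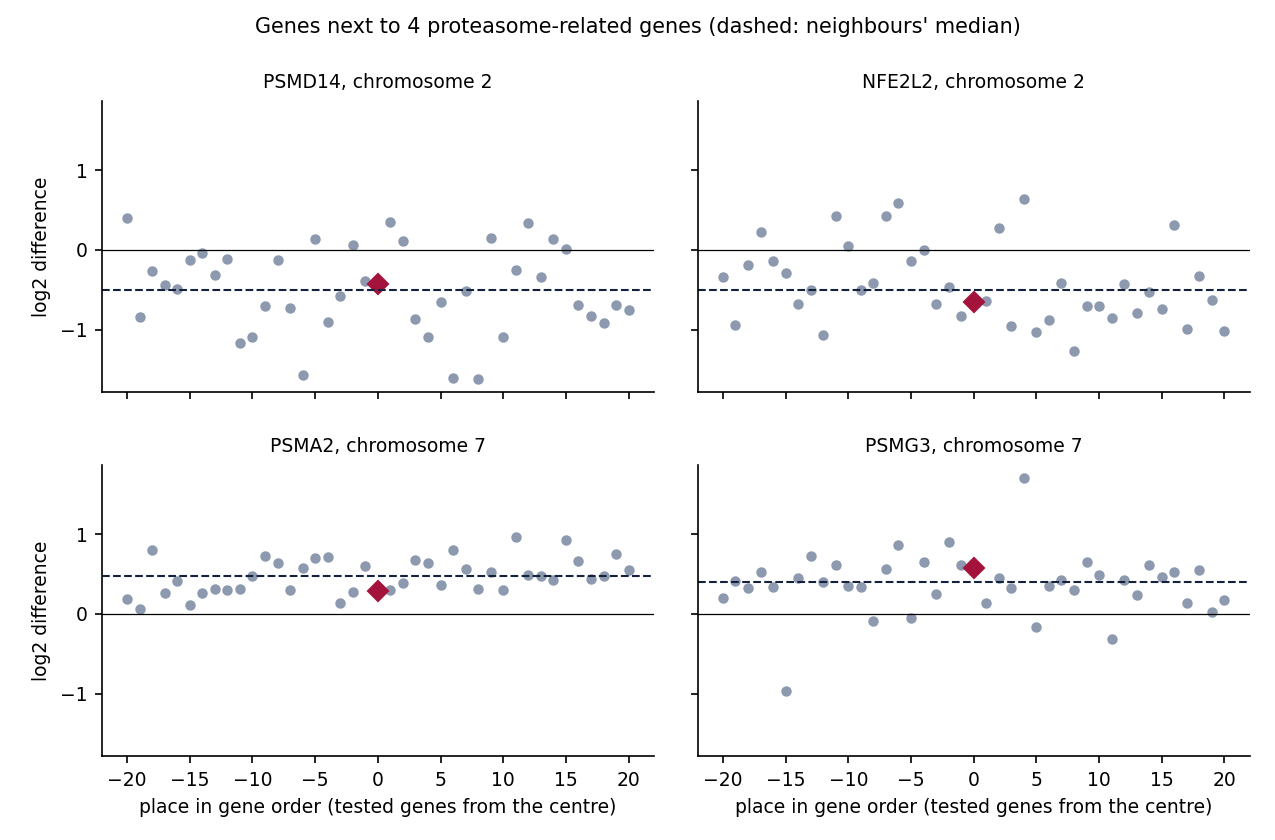
Log2 differences of the tested genes next to PSMD14, NFE2L2, PSMA2 and PSMG3 (diamonds), by place in gene order up to 20 genes on each side; the dashed line is the neighbours' median. The medians are -0.50 on chromosome 2 around PSMD14 and around NFE2L2, 0.48 around PSMA2 and 0.41 around PSMG3.

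Genes that work with the proteasome were read from 5 lists, in which 41 genes were tested. Of these, 3 rose, 1 fell and 37 did not pass in limma over all genes, where 3.65% of all tested genes were called in either direction. At an unadjusted p under 0.05 there were 12 of 41, where 20.6% of all tested genes were. Their median difference was 0.0099, against 0.058 over all genes.

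The 3 immunoproteasome subunits, which replace the catalytic subunits under interferon, did not pass, and PSMB10 alone had an unadjusted p under 0.05. It was at -0.33 (SE 0.12, limma adjusted p = 0.174), with 8.30 and 8.20 on the CD133+ arrays below 8.57 and 8.60 on the CD133- arrays. PSMB8 was at -0.061 (SE 0.14). PSMB9 was at 0.019 (SE 0.32), with CD133+ arrays at 5.70 and 6.74 on either side of the CD133- arrays at 6.14 and 6.27, so that little can be read from it.

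Of 7 assembly factors, PSMG3, part of a chaperone pair for the alpha ring, rose and 6 did not pass. At an unadjusted p under 0.05 there were 4, 3 higher and 1 lower, against 20.6% of all tested genes. PSMG3 had log2 signals of 9.88 and 10.08 in the CD133+ clone against 9.39 and 9.42 in the CD133- clone. The groups lay apart by more than the replicates did, and the difference was 0.58 (SE 0.11, 1.49-fold, limma adjusted p = 0.0263). PSMG4, its partner in that pair, was at -0.083 (SE 0.13), and PSMG1 and PSMG2, the other chaperone pair of the alpha ring, were at -0.20 and 0.12. POMP, the maturation factor of the core, was at 0.18 (SE 0.074, limma adjusted p = 0.209), and -0.65 from a dim probe set. AKIRIN2, also of this list, was at 0.40 (SE 0.12, limma adjusted p = 0.117), and its other probe sets gave 0.14, -0.21 and 0.15. PSMG3 lies on chromosome 7 with neighbours at a median of 0.41. It has 1 probe set, so the probe-set rules left its difference at 0.58 and moved only the adjusted p. Its call was lost with centred arrays (0.44, limma adjusted p = 0.130), without CD133- replicate 1 (0.161), without CD133- replicate 2 (0.0699), with the mean of probe sets (0.0502), with all probe sets one by one (0.0668), without a variance trend (0.130) and against a 1.5-fold change.

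Among 12 partners and inhibitors, ZFAND2A, a stress-induced proteasome-binding protein, rose and 11 did not pass. It had 10.58 and 10.50 in the CD133+ clone against 9.68 and 9.67 in the CD133- clone. This was the largest difference of the related genes, at 0.86 (SE 0.090, 1.82-fold, limma adjusted p = 0.00815), and its call was kept without any 1 of the 4 arrays. It was lost without a variance trend (limma adjusted p = 0.0773) and against a 1.5-fold change. ZFAND2A lies 6 tested genes from PSMG3, with neighbours at a median of 0.38. ADRM1, a ubiquitin receptor of the regulatory particle, was at 0.13, SEM1, its smallest subunit, at 0.0099, and PSMF1, an inhibitor of the core, at -0.097. For PSMF1 the 3 other probe sets gave -0.31 to -0.53. The deubiquitinases USP14 and UCHL5 were at -0.21 (SE 0.092) and -0.033 (SE 0.16). Other probe sets above the level limit gave -0.12 and -0.29 for USP14 and -0.58 and -0.33 for UCHL5.

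Of 9 tested genes of transcriptional control NFE2L2, the factor NRF2, fell and 8 did not pass. At an unadjusted p under 0.05 there were 5, 2 higher and 3 lower, against 20.6% of all tested genes. The arrays of the groups did not overlap in 8 of 9, against 51.6% of all tested genes. NFE2L2 had log2 signals of 9.93 and 9.95 in the CD133+ clone against 10.62 and 10.57 in the CD133- clone. The replicates were close and the groups apart, with a fall by 0.66 (SE 0.086, 1.58-fold lower, limma adjusted p = 0.0110). Its 2 dim probe sets gave -0.19 and 0.16, and the mean of the 3 did not pass (-0.23, limma adjusted p = 0.489), nor did the gene without CD133- replicate 1 (limma adjusted p = 0.0831), without a variance trend (0.0990) or against a 1.5-fold change. NFE2L2 lies on chromosome 2, 63 tested genes from PSMD14, with neighbours at a median of -0.50 and 16 of 40 called lower, against 2.34% of all tested genes. NFE2L1, the factor known to raise proteasome genes when the proteasome is inhibited, was at 0.24 (SE 0.090, limma adjusted p = 0.182), while a probe set of nearly equal signal gave 0.0048. NFE2L3, of the same family, was at -0.66 (SE 0.22, limma adjusted p = 0.149) with arrays apart, and a dim probe set gave -0.27. MAFG, also of this list, was at 0.45 (SE 0.18, limma adjusted p = 0.218) with arrays apart, and its other probe set gave 0.64. NFYA, a subunit of NF-Y, was at -0.49 (SE 0.17, limma adjusted p = 0.161), and NFYB and NFYC, its other subunits, at 0.16 and 0.018. Their signs depend on the probe set. Other probe sets above the level limit gave 0.10, 0.20, -0.26 and -0.17 for NFYA and -0.11 and -0.027 for NFYB. For NFYC they gave 0.058, -0.31, -0.22 and 0.19.

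Of 10 tested genes of ubiquitin supply and substrate delivery, NPLOC4, a cofactor of the unfolding ATPase VCP, rose and 9 did not pass. NPLOC4 had 9.41 and 9.66 in the CD133+ clone against 8.80 and 8.95 in the CD133- clone. The groups did not overlap, and the difference was 0.66 (SE 0.12, 1.58-fold, limma adjusted p = 0.0293). UFD1, the partner of NPLOC4, was at 0.14 and VCP at 0.11. The ubiquitin gene UBB was at 0.099 (SE 0.065). NPLOC4 lies on chromosome 17 with neighbours at a median of 0.28. It has 1 probe set, so the probe-set rules left its difference at 0.66 and moved only the adjusted p. Its call was lost with centred arrays (limma adjusted p = 0.0987), without CD133- replicate 1 (0.189), without CD133- replicate 2 (0.0514), with the mean of probe sets (0.0549), with all probe sets one by one (0.0743), without a variance trend (0.124) and against a 1.5-fold change.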

How the data were processed

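Total RNA of 2 CD133+ and 2 CD133- samples was measured on Affymetrix arrays with 54675 probe sets. The deposited values are log2 signals, as their range of 2.52 to 14.57 shows; they were made with Affymetrix Expression Console, per the submitters' processing notes, and the normalization is not given in the sources used here. Array medians differed by 0.144, above a limit of 0.1, so the values without 62 control probe sets were quantile normalized, which removes any overall difference between arrays. Probe sets were named through the platform annotation: 41091 name 1 gene, 1801 several and 11721 were not listed and stayed unnamed. Of 19777 genes, 19735 matched RefSeq (GRCh38.p14), which gave gene order and promoters (29 of 34 members matched). The level filter removed the lowest 20% of genes by mean, below 3.75, and left 15821.

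The test was limma's (version 3.58.1, R 4.3.3; lmFit, eBayes with trend, two-sided), with Benjamini-Hochberg adjustment over all genes tested. An exact permutation test of 2 against 2 arrays cannot go below p = 0.333, so calls rest on limma's variance prior, worth 6.17 degrees of freedom. Having only 4 arrays limits the precision. Errors after ± are SDs over 2 arrays; SE and 95% intervals come from limma. Scripts were tested on simulated data. The value on every array is given for PROM1, the subunits past the threshold, the subunits with the largest positive and negative difference in each role, the related genes that passed and 11 related genes always named by their difference; PSMD3, PSMD5 and PSMB10 were given in full after their values were seen. Members and lists were chosen with earlier results of these data known. The alternatives were other level filters, scalings, probe-set rules, variance models, thresholds, a replicate block and leaving out each array, where a group with 1 array is assumed to vary like the other.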

Additional observations from a re-analysis of the deposited data

How the results depend on the processing

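Of all genes tested 577 were called (35.9% higher), 414 with the values as deposited (21.3% higher), 459 with centred arrays (11.3% higher), 247 with the mean of probe sets, 166 with all probe sets one by one, 12 without a variance trend, 50 at an adjusted p under 0.01, 7 against a 1.5-fold change and 124 to 706 without 1 array. The regulatory particle's 1 call, PSMD14, became 0 with all probe sets one by one, without a variance trend, at an adjusted p under 0.01 and against a 1.5-fold change, and 0 to 1 without 1 array. The core particle had 0 to 1 calls without 1 array: PSMA2 without CD133+ replicate 1 and PSMA4 without CD133+ replicate 2. No filter on level, a filter at the median level and robust variance kept all these counts within 1.5 times. The labels' replicate numbers name no shared source, and with 2 numbers the samples share only a number; same-numbered arrays deviated from their group means with r = 0.43 across genes. With the replicate number as a block 3030 genes were called, 2 of them in the core particle (PSMA2 and PSMA4) and 6 in the regulatory particle (PSMC1, PSMD1, PSMD2, PSMD3, PSMD5 and PSMD14).

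With centred arrays the median difference was -0.11 in the core, -0.082 in the regulatory particle and -0.096 in the activators, where the main values were 0.0035, 0.00805 and 0.081. With the mean of probe sets the core was at 0.082 and the activators at -0.086. Without 1 array the core ran from -0.052 to 0.067, the regulatory particle from -0.025 to 0.083 and the activators from 0.045 to 0.12. Signs turned in genes that did not pass. With centred arrays PSMB4 was at -0.040, PSMB9 at -0.17 and SEM1 at -0.10; with the values as deposited PSMB9 was at -0.089 and SEM1 at -0.025; and with the mean of probe sets PSME4 was at -0.086 and POMP at -0.23. Without 1 array at a time PSMB4 ran from -0.015 to 0.10, PSME1 from -0.17 to 0.012, PSMB8 from -0.14 to 0.016, PSMB9 from -0.50 to 0.54, SEM1 from -0.014 to 0.034, PSMF1 from -0.20 to 0.0025 and UCHL5 from -0.30 to 0.24. The causes were not tested. At 2 arrays per group, differences of the size of most subunits cannot be told from the spread.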
